A study of Mus musculus with 9 samples.

Results

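MicroRNA genes numbered Mir290 to Mir499 were followed across 3 lines of mouse embryonic stem cells. They were taken by symbol from the array's value table: every feature annotated to 1 gene whose symbol falls in that number range, with any suffix. The rule gave 85 of the 19938 genes measured, each with 1 feature. It uses symbols and no measured value, but it was set with earlier results of these data known. It reaches the Mir302 and Mir367 cluster, 27 genes on chromosome 12 from the imprinted Dlk1-Dio3 locus (26 of them) or just before it (Mir345), and 53 others. 0 of the 85 came from the Mir290 to Mir295 cluster, which was not analysed here.

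All 9 arrays came from embryonic stem cells of a mixed S129S6-C57BL/6 background, grown on gelatin with serum and LIF (leukaemia inhibitory factor) and harvested before confluence. The 3 flox arrays were the controls: 1 β-catenin allele was deleted and the remaining allele was floxed. The 3 null arrays had both β-catenin alleles deleted. The 3 null Eα arrays were null cells carrying a stable E-cadherin-α-catenin fusion, a protein in which the cadherin is joined directly to α-catenin, the partner that β-catenin otherwise links to it. The labels name 3 biological replicates per group and do not say whether these were separate clones or cultures of 1 line, nor which promoter drove the fusion. Genotype and line therefore cannot be told apart, and the p-values measure the spread between these samples, which may be technical.

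A microRNA gene is transcribed as a long primary RNA, from which Drosha and Dgcr8 cut a hairpin. Dicer then cuts the hairpin to a mature strand that is loaded into an Argonaute protein and pairs with messenger RNAs through its seed, the bases near its 5′ end. The Mir302 and Mir367 genes make 1 primary transcript known from pluripotent cells, above all from the primed state that follows the naive state of cultured mouse stem cells. The Dlk1-Dio3 locus carries one of the largest groups of microRNA genes in the mouse genome, transcribed from the maternal chromosome along with the noncoding RNAs Meg3, Rian and Mirg. The array was hybridised with whole-transcript target from total RNA, so its values are signals of precursor or primary transcripts, and no mature microRNA was measured.

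The sequences below show which members share a seed and could act on the same messages. They are RefSeq entries on GRCm38.p6, written 5′ to 3′, and in mature forms the capitals mark the seed, bases 2 to 8. The first set belongs to the stem cell cluster. The seed AAGUGCU is also that of miR-291a-3p, miR-294-3p and miR-295-3p from the Mir290 cluster.
miR-302b-3p: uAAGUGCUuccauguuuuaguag
miR-302d-3p: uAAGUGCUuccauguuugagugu
miR-302c-3p: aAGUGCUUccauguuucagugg
miR-294-3p: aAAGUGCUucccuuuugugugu
miR-302a hairpin, its mature 5p form in capitals: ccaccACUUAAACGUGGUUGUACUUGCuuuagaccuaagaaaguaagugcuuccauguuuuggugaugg

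The 16-base stretch AAGUGCUUCCAUGUUU, read on the transcribed strand only, lay in the hairpins of Mir302a, Mir302b, Mir302c and Mir302d and in no other of the 1005 mouse hairpins searched (0.398%). Bases 2 to 8 of the entry for miR-302c-3p read AGUGCUU. The second set links Mir367 to Mir363, a gene of the X chromosome, and Mir301 to Mir130a and Mir130b, both outside the number range.
miR-367-3p: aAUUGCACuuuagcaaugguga
miR-363-3p: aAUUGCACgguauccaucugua
miR-301a-3p: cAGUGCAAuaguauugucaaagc
miR-130a-3p: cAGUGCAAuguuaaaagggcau
miR-130b-3p: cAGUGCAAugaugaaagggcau

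The third set is from the Dlk1-Dio3 locus, with miR-362-3p of the X chromosome as the seed partner of miR-329-3p. Of the pairs with 1 seed, miR-379-3p and miR-411-3p come from neighbouring genes.
miR-329-3p: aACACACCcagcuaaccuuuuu
miR-362-3p: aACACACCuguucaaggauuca
miR-379-3p: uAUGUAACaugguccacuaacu
miR-411-3p: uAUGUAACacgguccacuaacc
miR-300-3p: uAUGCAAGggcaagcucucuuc
miR-381-3p: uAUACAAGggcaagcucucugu

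Values are log2 RMA signals (RMA is a background correction, normalization and probe summary), so a difference of 1 is a 2-fold change. A gene was called when limma's adjusted p (Benjamini-Hochberg over the 19938 genes of a comparison) was under 0.05, and errors after ± are limma's standard errors with 3 arrays per group. Array medians lay between 5.95 and 6.06. The interquartile range was 3.75 to 3.84 on flox arrays, 3.41 to 3.46 on null arrays and 3.21 to 3.37 on null Eα arrays, so genes of low signal tended to read higher in the null lines. Correlations within a group were 0.995 to 0.997 for flox, 0.991 to 0.992 for null and 0.986 to 0.990 for null Eα, across features that are not independent. Null Eα replicate 3 stood apart from its group: its correlation with the null arrays was 0.978 to 0.980, against 0.964 to 0.970 for the other null Eα arrays. Of 11 embryonic stem cell markers, 9 were lower and 2 higher in null than in flox, 6 lower and 1 higher in null Eα than in flox, and 10 higher and 1 lower in null Eα than in null. Their mean signal per array was 10.79 to 10.84 in flox, 8.65 to 8.97 in null and 10.56 to 10.72 in null Eα. The smallest p in null belonged to Dppa5a (-6.62 ± 0.15), Esrrb (-5.54 ± 0.16) and Nanog (-2.46 ± 0.12). Of 14 fibroblast markers, 11 were higher in null and 11 in null Eα, and their mean signal per array was 5.60 to 5.73 in flox, 7.63 to 8.23 in null and 7.18 to 7.42 in null Eα. Lum and Meox1 were not called in either line. In RNA from whole cultures, fewer cells of a type and less RNA per cell cannot be told apart.

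Most of the microRNA genes that changed against flox rose. In null cells 41 of the 85 rose, 4 fell and 40 were not called, against 26.5% of all genes that rose, 28.7% that fell and 55.2% called in either direction. The members' share of rises was 48.2%, and their median difference was 0.30 against 0.06 for all genes. In null Eα cells 50 rose, 4 fell and 31 were not called, where 32.1% of all genes rose, 31.6% fell and 63.7% were called in all. The share of rises was 58.8% and the median difference 0.33, against 0.07 for all genes.

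The array's low range has to be read beside these counts, since 74 of the 85 lay below the median signal of all features and 45 below the lower quartile. Of all genes below that median, 26.0% rose in null and 46.6% in null Eα. Of the 74 members below it, 34 (45.9%) rose in null and 40 (54.1%) in null Eα. The members' share thus stood further from that of low genes in null cells than in null Eα cells. The count in null Eα cells also depended on the scale: it was 26 after quantile normalization and 24 after cyclic loess, in place of 50.

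Between the 2 null lines few members differed. With the fusion, 7 of the 85 were higher (8.24%) and 8 lower, against 13.6% of all genes higher, 18.1% lower, 31.7% called in all and 10.3% higher among genes below the median. The members' median difference was 0.05, as it was for all genes. The 8 lower ones all lay in the Dlk1-Dio3 locus and the 7 higher ones all lay outside it. The 7 fell to 1 without null replicate 3 or without null Eα replicate 1, to 3 without null replicate 2, to 4 without null replicate 1 and to 3 with arrays centred on their medians. Without null Eα replicate 3, which stood apart from its group, 9 were higher and 14 lower than in null, and 46 rose against flox.

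**Figure D1:**
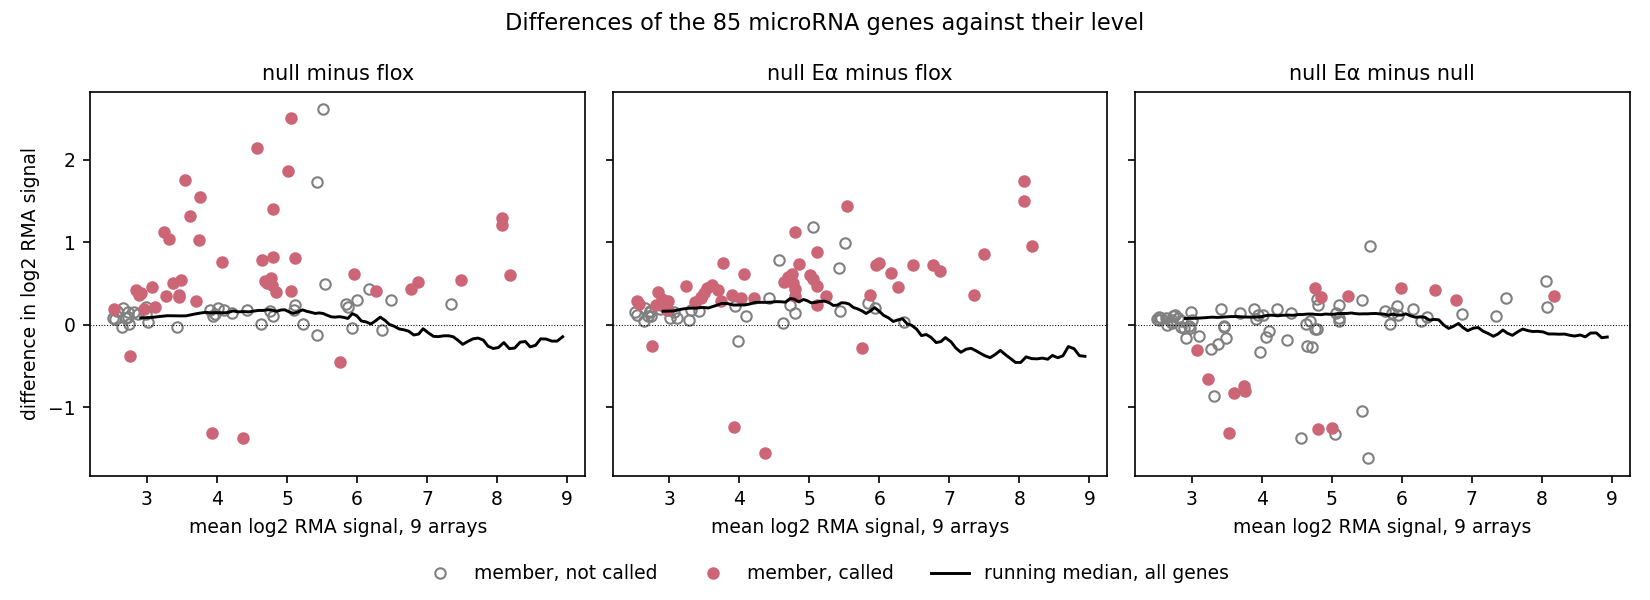
Difference between group means (vertical, log2 RMA signal) against the mean signal over 9 arrays (horizontal, log2) for the 85 microRNA genes in 3 comparisons; filled points were called at an adjusted p under 0.05, open points were not, and the line is the running median of genes of like signal. In null against flox 65 of the 85 points lie above the line, in null Eα against flox 60, and in null Eα against null 37.

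The 5 genes of the stem cell cluster included the largest mean differences between null and flox, with a wide spread between replicates. They lie on chromosome 3 in the order Mir302b, Mir302c, Mir302a, Mir302d and Mir367, from chr3:127545228-127545301 for the Mir302b hairpin to chr3:127545733-127545807 for that of Mir367 (GRCm38.p6, plus strand), inside the span of Larp7, which is transcribed from the other strand. Larp7 encodes a protein that binds the 7SK RNA.

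Mir302b read 4.38, 4.19 and 4.37 in flox, 4.65, 8.23 and 7.89 in null, and 4.10, 4.21 and 7.60 in null Eα. Null replicates 2 and 3 and null Eα replicate 3 were high, and the other 6 arrays lay within 4.10 to 4.65. The mean difference from flox was 2.61 ± 1.02 in null (adjusted p 0.0518) and 0.99 ± 1.02 in null Eα (adjusted p 0.409), and neither was called.

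The same 3 arrays were high for the other genes of the cluster. Mir302c read 3.92, 3.63 and 3.92 in flox, 4.32, 7.56 and 7.10 in null, and 3.78, 4.39 and 6.85 in null Eα. Mir302a read 3.64, 3.68 and 3.46 in flox, 4.06, 6.91 and 6.25 in null, and 3.66, 3.64 and 5.81 in null Eα. In both genes all null arrays were above all flox arrays, and the rise in null was called, at 2.50 ± 0.87 for Mir302c (adjusted p 0.0326) and 2.15 ± 0.71 for Mir302a (adjusted p 0.0261).

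Mir302d read 4.75, 4.50 and 4.60 in flox, 4.79, 7.39 and 6.87 in null, and 4.56, 4.57 and 6.80 in null Eα. Its difference of 1.73 ± 0.69 in null was not called (adjusted p 0.0554). Mir367, whose mature form has the seed AUUGCAC and not that of the Mir302 genes, read 2.87, 2.83 and 3.03 in flox, 3.03, 4.23 and 4.61 in null, and 3.01, 2.85 and 3.40 in null Eα. Its rise of 1.04 ± 0.33 in null was called (adjusted p 0.0197) although null replicate 1 overlapped the flox arrays.

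In null Eα against flox 0 of the 5 were called, with differences from 0.18 to 1.18, and in null Eα against null 0 were called, with differences from -1.62 to -0.87. These counts turn on single arrays. The 3 called in null against flox became 0 without flox replicate 1, flox replicate 2, null replicate 2 or null replicate 3, and 1 without flox replicate 3 or with a trended and robust prior. They became 5 without null replicate 1, without null Eα replicate 3 or with only the 2 groups in the fit. Without null replicate 1 or without null Eα replicate 3, all 5 were called lower in null Eα than in null, at -2.76 and -2.77 for Mir302b.

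**Figure D2:**
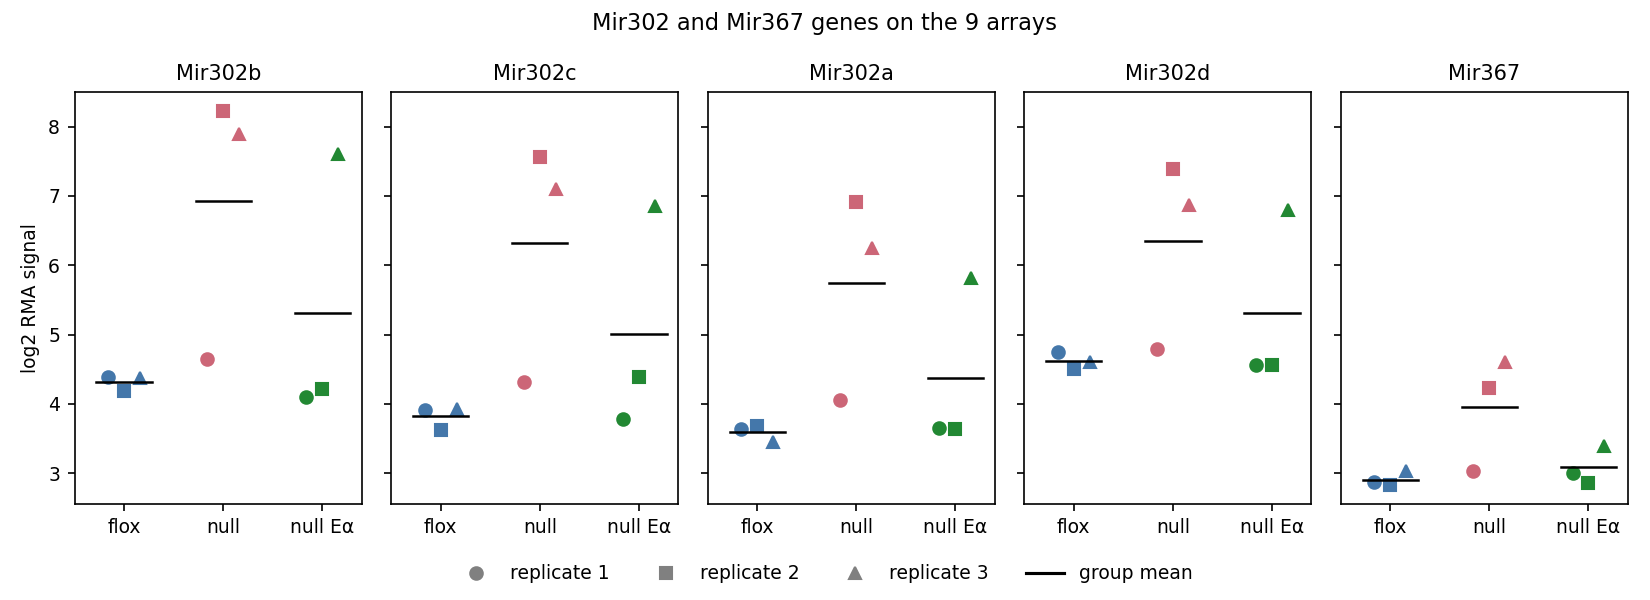
Log2 RMA signal (vertical) of the 5 genes of the Mir302 and Mir367 cluster in the flox, null and null Eα groups (horizontal); each symbol is 1 array, shaped by replicate number, and bars are group means. Null replicates 2 and 3 and null Eα replicate 3 stand above the rest for all 5 genes, and for Mir302b they lie between 7.60 and 8.23 while the other 6 arrays lie between 4.10 and 4.65.

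Larp7 read 10.11, 10.25 and 10.20 in flox, 10.66, 10.58 and 10.60 in null, and 10.04, 10.07 and 10.37 in null Eα. All 3 null arrays and null Eα replicate 3 were above the flox arrays. Larp7 was 0.42 higher in null (called) and at -0.03 in null Eα (not called). Of 10 transcription factors reported at the stem cell microRNA clusters, 8 were lower and 2 higher in null, beside 28.7% and 26.5% of all genes. Esrrb, Eomes (-2.32 ± 0.10) and Klf2 (-2.70 ± 0.13) had the smallest p. In null Eα 5 were lower and 1 higher than in flox, beside 31.6% and 32.1% of all genes. Against null, 8 were higher and 1 lower in null Eα, beside 13.6% and 18.1%. The mean signal of the 10 factors per array was 9.67 to 9.72 in flox, 8.01, 7.71 and 7.82 in null, and 9.45, 9.57 and 9.31 in null Eα. The array with the lowest mean in each null line, null replicate 2 and null Eα replicate 3, was among those with high Mir302 signals. Across the lines the order differed. Null replicate 1, with a factor mean of 8.01, averaged 4.17 over the 5 cluster genes. Null Eα replicate 3, with a factor mean of 9.31, averaged 6.09. The fibroblast markers averaged 7.68, 8.23 and 7.63 in null and 7.42, 7.18 and 7.25 in null Eα. The part of either list in the Mir302 signals was not tested.

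Of 26 messages reported as targets of the stem cell microRNAs, 12 (46.2%) were higher and 7 lower in null than in flox, where 26.5% of all genes were higher and 28.7% lower. In null Eα 9 (34.6%) were higher and 7 lower, beside 32.1% and 31.6% of all genes. The smallest p in null belonged to Ei24, a gene of p53-dependent cell death (-1.58 ± 0.08), Cdkn1c, an inhibitor of cyclin-dependent kinases (1.52 ± 0.11), and Tgfbr2, a TGF-β receptor (1.22 ± 0.09). In null Eα they belonged to Ezh1 (-1.85 ± 0.11), Casp2 (-1.66 ± 0.10) and Ei24 (-1.18 ± 0.08). Lats2, a Hippo pathway kinase, was 0.76 higher in null than in flox, and null Eα stood at -0.69 against null. Members of the list were called in both directions in each comparison.

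Of the 27 microRNA genes of the Dlk1-Dio3 list on chromosome 12, 24 rose in null cells and 0 fell, beside 26.5% of all genes that rose. In null Eα cells 22 rose and 0 fell, beside 32.1% of all genes. Without Mir345, which lies before Dlk1, the counts were 23 and 21 of 26. The median difference was 0.51 in null and 0.40 in null Eα. When genes below the lower quartile of signal were left out, 8 of 10 rose in each line. The count in null Eα was 11 of 27 after quantile normalization and 10 of 27 after cyclic loess, with no share of all genes under those settings given here. Compared with null, 8 of the 27 were lower and 0 higher in null Eα, beside 18.1% of all genes that were lower and 13.6% that were higher. The 2 null lines were each set against the same flox arrays, and the third comparison uses the null arrays again, so the values below are given side by side.

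All 8 of those genes lie in the stretch that runs from Rian through Mirg. Mir329 read 4.26, 4.20 and 4.10 in flox, 6.04, 5.95 and 6.14 in null, and 4.92, 4.70 and 4.75 in null Eα, 3 ranges that did not overlap. It rose by 1.86 ± 0.09 in null (3.63-fold, adjusted p 5.37e-08) and by 0.60 ± 0.09 in null Eα, and was 1.26 ± 0.09 lower in null Eα than in null (adjusted p 6.53e-06). These 3 calls were made under all 18 alternatives. Its seed partner Mir362, an X-linked gene within Clcn5, was within 0.02 of flox in both lines and was not called.

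Mir380 read 2.77, 2.80 and 2.86 in flox, 4.74, 4.24 and 4.72 in null, and 3.36, 3.27 and 3.12 in null Eα. It rose by 1.76 ± 0.13 in null and by 0.44 ± 0.13 in null Eα, without overlap between any groups, although the rise in null Eα was not called after quantile normalization or cyclic loess. Mir487b read 4.36, 4.22 and 4.27 in flox, 5.76, 5.56 and 5.75 in null, and 4.40, 4.67 and 4.21 in null Eα. It rose by 1.41 ± 0.12 in null, while its difference in null Eα, 0.14 ± 0.12, was not called (adjusted p 0.29) and the null Eα arrays overlapped those of flox.

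Mir300 and Mir381, neighbours with the 3p seeds AUGCAAG and AUACAAG, both rose. Mir300 read 3.07, 3.00 and 2.92 in flox, 4.03, 4.66 and 4.95 in null, and 4.12, 3.56 and 3.54 in null Eα. Its null Eα replicate 1 overlapped the null arrays. It rose by 1.55 ± 0.22 in null and by 0.75 ± 0.22 in null Eα, and the latter call was lost without null Eα replicate 1 and after both quantile normalization and cyclic loess. Its lower signal in null Eα than in null, -0.81 ± 0.22 (adjusted p 0.019), was not called without null replicate 2, null replicate 3 or null Eα replicate 2, nor with only those groups in the fit. Over its alternatives the adjusted p lay between 0.00249 and 0.0722.

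Mir381 read 3.33, 3.22 and 3.36 in flox, 4.43, 4.34 and 4.24 in null, and 3.53, 3.70 and 3.54 in null Eα, and rose by 1.03 ± 0.08 in null and 0.29 ± 0.08 in null Eα. The rise in null Eα was 0.11 after quantile normalization and 0.08 after cyclic loess, neither called, and was not called without flox replicate 2. Mir382 read 3.03, 3.00 and 3.02 in flox, 4.15, 4.30 and 4.54 in null, and 3.49, 3.53 and 3.47 in null Eα. It rose by 1.31 ± 0.09 in null and 0.48 ± 0.09 in null Eα. Mir377 read 2.71, 2.67 and 2.74 in flox, 3.68, 3.95 and 3.86 in null, and 3.18, 3.18 and 3.17 in null Eα. It rose by 1.12 ± 0.08 and 0.47 ± 0.08. For these 3 genes the null Eα arrays lay between the flox and null arrays, with no overlap.

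Mir411 gave the smallest of the 8 differences between the null lines. It read 2.81, 2.85 and 2.93 in flox, 3.20, 3.36 and 3.42 in null, and 2.99, 2.92 and 3.17 in null Eα, for a rise of 0.46 ± 0.09 in null and a lower signal of -0.30 ± 0.09 in null Eα than in null (adjusted p 0.0278). That last call was lost in 5 of 17 alternatives, among them the fits without null replicate 2, null replicate 3, null Eα replicate 1 or null Eα replicate 2. Its near neighbour Mir379, which shares the 3p seed AUGUAAC, was 0.42 higher in null and 0.40 higher in null Eα and did not differ detectably between them (-0.03, adjusted p 0.863).

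Other genes of the locus were as high in null Eα as in null, or higher. Mir341, within Rian, read 7.23, 7.18 and 7.002 in flox, 8.55, 8.35 and 8.39 in null, and 8.58, 8.75 and 8.60 in null Eα. It rose by 1.29 ± 0.09 in null and by 1.50 ± 0.09 in null Eα, and the lines differed by 0.21 ± 0.09 (adjusted p 0.0978). Mir370, also within Rian, rose by 0.81 ± 0.14 in null and 0.89 ± 0.14 in null Eα.

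Mir494 read 4.37, 4.17 and 3.91 in flox, 4.92, 4.92 and 5.06 in null, and 5.43, 5.08 and 5.31 in null Eα. It rose by 0.82 ± 0.13 in null and by 1.12 ± 0.13 in null Eα. Every null Eα array was above every null array, but the difference of 0.31 ± 0.13 was not called (adjusted p 0.0883). Mir494 lies next to Mir329 in the order of measured genes, and the 2 genes thus stood on opposite sides of 0 in null Eα against null.

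The 3 genes within Rtl1, Mir337, Mir431 and Mir434, were 0.20 to 0.44 higher in null, with only Mir434 called. In null Eα they were 0.18 to 0.62 higher, all called, although the call for Mir434 there was made in 5 of 17 alternatives. The strand of the 3 relative to Rtl1 was not known from the reference used. Mir345, which lies before Dlk1, rose by 0.62 and 0.73. The other 12 genes of the stretch from Rian through Mirg, Mir299a, Mir323, Mir495, Mir376a, Mir376b, Mir376c, Mir485, Mir496a, Mir409, Mir412, Mir369 and the Mir379 already named, stood above flox in null by 0.19 for Mir376c to 0.76 for Mir323. Of these 12, Mir376a was not called in null (0.21, adjusted p 0.0607).

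**Figure D3:**
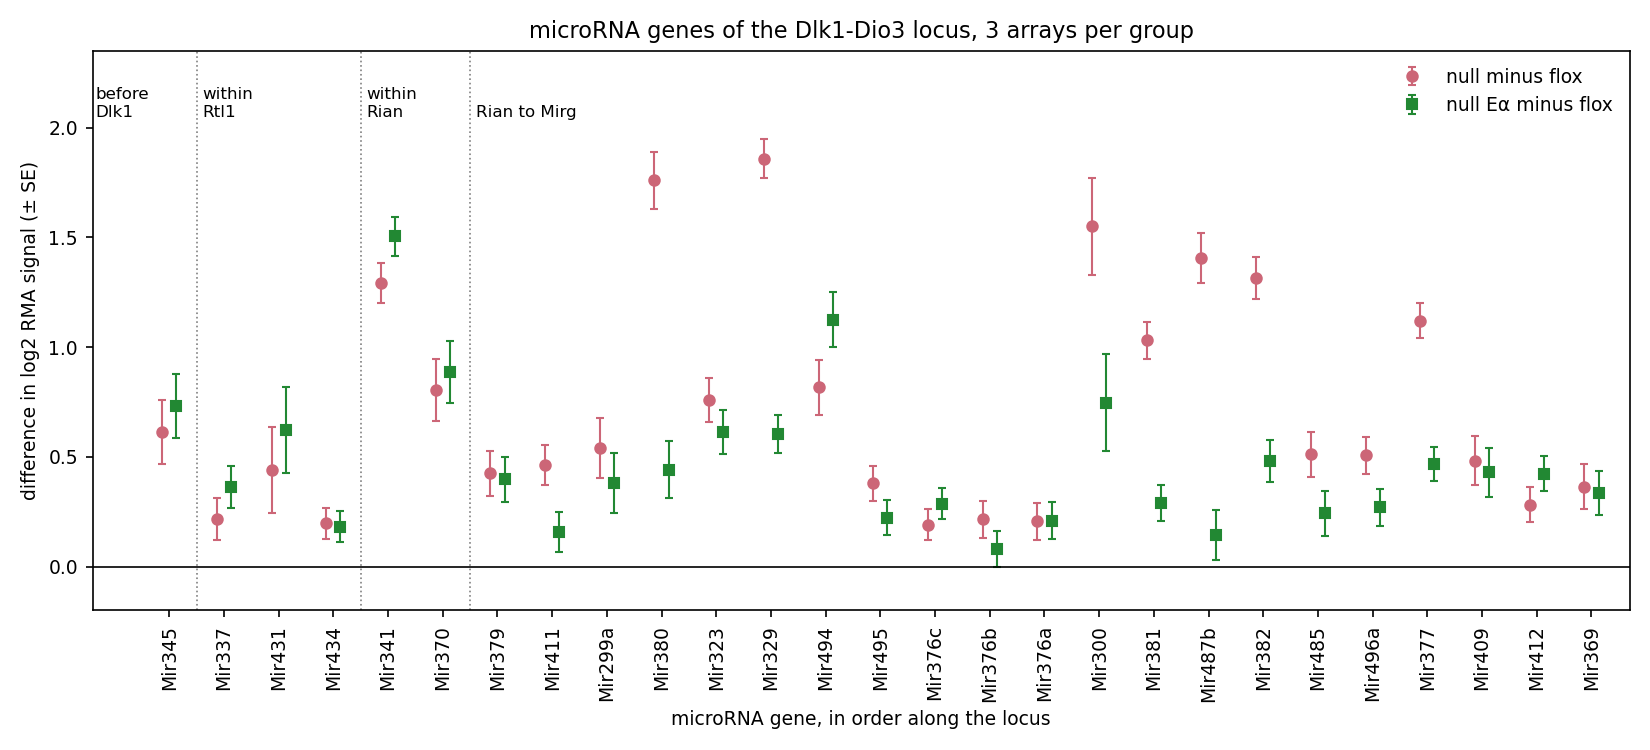
Difference from flox in log2 RMA signal (vertical, limma estimate ± SE, 3 arrays per group) for the 27 microRNA genes of the Dlk1-Dio3 list, Mir345 before Dlk1 included, in their order along chromosome 12 (horizontal), in null (circles) and null Eα (squares). The genes from Mir380 to Mir377 with null values above 1 have null Eα values of 0.14 to 0.75, while Mir341 and Mir494 have higher null Eα values than null values.

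Of the noncoding transcripts of the locus, Meg3 was 4.52 ± 0.17 higher in null and 1.57 ± 0.17 higher in null Eα than in flox, and null Eα stood at -2.95 against null. Rian was 3.79 ± 0.27 and 0.96 ± 0.27 higher than in flox, and null Eα stood at -2.83 against null. The protein-coding neighbours did not follow them: Rtl1 was not called in any of the 3 comparisons, Dlk1 was -0.12 in null (not called) and 0.25 higher in null Eα, and Dio3 fell by 0.48 in null and rose by 0.45 in null Eα.

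Falls were few, and 2 of the 4 genes that fell did so by more than 2-fold in both lines. Mir363, the last gene of the X-linked cluster that also holds Mir106a, Mir20b, Mir19b-2 and Mir92-2, read 5.33, 5.25 and 5.45 in flox, 3.73, 4.26 and 3.92 in null, and 3.90, 3.43 and 4.03 in null Eα. It was 2.59-fold lower in null (-1.37 ± 0.17, adjusted p 4.84e-05) and 2.94-fold lower in null Eα (-1.56 ± 0.17), with no overlap with flox. Its seed partner Mir367 was not lower in either line.

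The neighbours of Mir363 were named after their values were seen. Mir106a fell by 0.37 in null and 0.27 in null Eα, and Mir20b fell by 0.59 and 0.53, all called. Mir19b-2 and Mir92-2 were within 0.18 of flox and were not called.

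Mir301, the gene of miR-301a, lies within Ska2, which encodes a protein of the spindle and kinetochore complex. It read 4.68, 4.71 and 4.93 in flox, 3.36, 3.41 and 3.62 in null, and 3.54, 3.59 and 3.46 in null Eα. It was 2.48-fold lower in null (-1.31 ± 0.10, adjusted p 1.16e-06) and 2.37-fold lower in null Eα (-1.24 ± 0.10), calls made under all 17 alternatives in which it was tested. Ska2 itself was 0.61 higher in null and stood at -0.56 in null Eα, both called. Of its seed partners, again named after their values were seen, Mir130a fell by 1.64 ± 0.25 and 1.51 ± 0.25, while Mir130b was at -0.15 and 0.12 and was not called. Mir301b, which shares the 5p seed CUCUGAC, was 0.18 higher in null (not called) and 0.23 higher in null Eα. The Mir301b hairpin also holds the bases AGUGCAA, the seed of miR-301a-3p, but the table had no 3p mature entry for it.

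The other falls were smaller. Mir423, within Nsrp1, read 6.09, 5.85 and 6.05 in flox, 5.62, 5.71 and 5.33 in null, and 5.74, 5.71 and 5.71 in null Eα, and fell by 0.45 ± 0.11 and 0.28 ± 0.11, but with each chromosome centred the second value turned to 0.18 and neither was called. Mir466, within Sfmbt2, fell by 0.38 ± 0.09 in null and 0.26 ± 0.09 in null Eα, where it overlapped flox. The call for Mir466 in null Eα was lost without flox replicate 1 or 3 or null Eα replicate 2 or 3. That for Mir423 was lost without flox replicate 1 or 3 or any 1 of the null Eα arrays.

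Sfmbt2, a Polycomb-related gene that is imprinted in the placenta, hosts a large repeated microRNA cluster, and Mir297b also lies within it. Mir297b read 5.36, 5.09 and 4.25 in flox, 4.98, 5.49 and 5.71 in null, and 6.81, 6.59 and 5.63 in null Eα. It rose in null Eα by 1.44 ± 0.35 (adjusted p 0.00461), with flox and null Eα apart, and its 0.49 ± 0.35 in null was not called. Null Eα replicate 3 overlapped the null arrays, and the difference of 0.95 ± 0.35 between the null lines was not called (adjusted p 0.0596). It was called in 3 of 18 alternatives: at 1.31 without null Eα replicate 3, without flox replicate 3, and with the replicate number as a block (adjusted p 0.0474). Sfmbt2 stood at -0.77 in null against flox, was 0.37 higher in null Eα (not called) and 1.14 higher in null Eα than in null. Mir297-1, a related copy on chromosome 7, was not called in any comparison. Copies of this family share sequence, so a feature's signal may come from more than 1 copy.

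**Figure D4:**
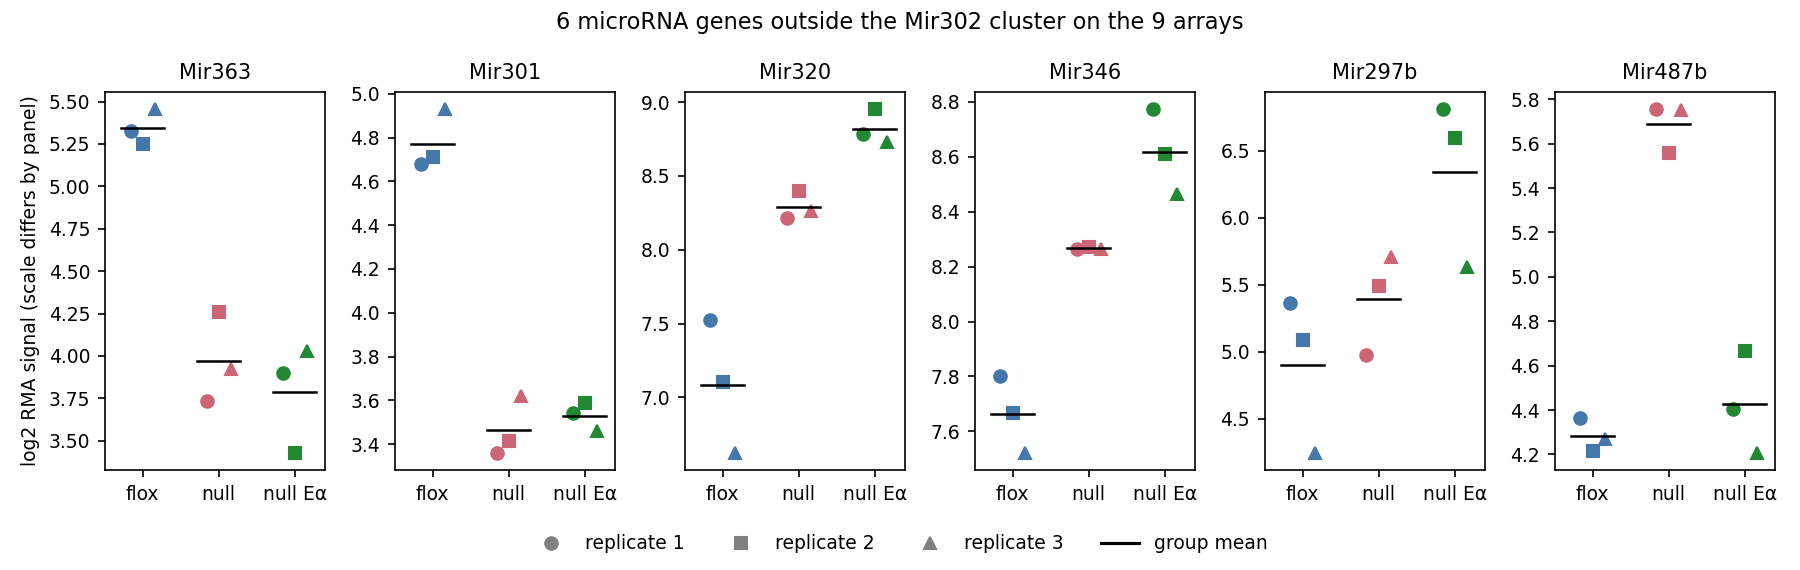
Log2 RMA signal (vertical, scale set per panel and not starting at 0) of Mir363, Mir301, Mir320, Mir346, Mir297b and Mir487b in the flox, null and null Eα groups (horizontal); each symbol is 1 array, shaped by replicate number, and bars are group means. Mir363 and Mir301 are low in both null lines, Mir320 and Mir346 are high in both, and Mir487b is high in null alone, at 5.56 to 5.76 against 4.21 to 4.67 on the other arrays.

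Among the 53 members outside the 2 clusters, 14 (26.4%) rose and 4 fell in null, and 28 (52.8%) rose and 4 fell in null Eα. Of all genes, 26.5% rose and 28.7% fell in null, and 32.1% rose and 31.6% fell in null Eα. Of all genes below the median signal, 26.0% rose in null and 46.6% in null Eα. Mir320 rose furthest. It read 7.52, 7.10 and 6.62 in flox, 8.22, 8.40 and 8.26 in null, and 8.78, 8.95 and 8.73 in null Eα. It was 2.31-fold higher in null (1.21 ± 0.18, adjusted p 0.000246) and 3.34-fold higher in null Eα (1.74 ± 0.18, adjusted p 2.1e-05). Every null Eα array was above every null array, but that difference, 0.53 ± 0.18, was just short of the threshold (adjusted p 0.0502) and was called in 8 of 18 alternatives.

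Mir346, within the glutamate receptor gene Grid1, read 7.80, 7.67 and 7.52 in flox, 8.27 on each null array, and 8.77, 8.61 and 8.47 in null Eα. It rose by 0.60 ± 0.10 in null, by 0.95 ± 0.10 in null Eα, and by 0.35 ± 0.10 from null to null Eα (adjusted p 0.0202), a call lost without null replicate 2 or 3 or null Eα replicate 1 or 2. Grid1 was not called in any comparison. Mir328 read 7.16, 6.98 and 6.93 in flox, 7.50, 7.81 and 7.37 in null, and 8.04, 7.83 and 7.77 in null Eα, rises of 0.54 ± 0.12 and 0.86 ± 0.12. Its containing gene Elmo3 stood at -0.17 in null (not called) and -0.41 in null Eα. In both genes the flox arrays did not overlap either null line.

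Mir449a and Mir449c share the seed GGCAGUG and lie within Cdc20b, a locus known from ciliated cells. Mir449a read 4.45, 4.16 and 4.02 in flox, 5.07, 4.84 and 5.06 in null, and 4.66, 5.03 and 4.50 in null Eα, and rose by 0.78 ± 0.15 and 0.52 ± 0.15, the latter not called after quantile normalization (0.31), cyclic loess (0.28) or without flox replicate 3. Mir449c rose by 0.41 and 0.55. Cdc20b was within 0.05 of flox in both lines and was not called.

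Of the members tied to other imprinted genes, Mir335 lies within Mest, Mir483 within Igf2, and Mir296 and Mir298 next to each other on chromosome 2. Mir483 read 6.31, 6.32 and 6.53 in flox, 6.81, 6.82 and 6.81 in null, and 7.23, 7.04 and 7.07 in null Eα, and rose by 0.43 ± 0.08 and 0.73 ± 0.08. Its difference of 0.30 between the null lines was called in 14 of 18 alternatives, and not without null replicate 2 or 3 or null Eα replicate 1. Igf2, a fetal growth factor, was 0.81 higher in null and stood at -0.70 in null Eα, both called. Mir335 was 0.14 higher in null (not called) and 0.33 higher in null Eα, while Mest stood at -2.99 ± 0.09 and -2.70 ± 0.09. The call for Mir335 was lost after quantile normalization (0.12) and cyclic loess (0.10).

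Mir298 read 4.68, 4.36 and 4.46 in flox, 4.68, 4.68 and 4.63 in null, and 5.21, 5.09 and 5.02 in null Eα. It was 0.61 ± 0.09 higher in null Eα than in flox and 0.44 ± 0.09 higher than in null, the only 1 of the 7 genes higher in null Eα than in null whose call was made under all 18 alternatives. Its neighbour Mir296 lay between 6.21 and 6.51 on all 9 arrays and was not called in any comparison.

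Mir375, Mir326, Mir365-2 and Mir484 were also higher in null Eα than in null. Mir375, known from islet and neuroendocrine cells, read 5.68, 5.87 and 5.39 in flox, 5.76, 6.17 and 5.92 in null, and 6.35, 6.63 and 6.20 in null Eα. It rose by 0.75 ± 0.15 from flox and 0.45 ± 0.15 from null (adjusted p 0.0495). Mir326, within Arrb1, was 0.73 higher than in flox and 0.42 higher than in null, whereas Arrb1 stood at -0.58 against flox. Mir484 rose by 0.40 in null and 0.73 in null Eα, the former not called after quantile normalization (0.25) or cyclic loess (0.24). Mir365-2 did not move in null (0.00 ± 0.12) and was 0.35 higher in null Eα than in flox, a call made in 12 of 18 alternatives and lost without flox replicate 2 or 3, with only those groups in the fit, and after median centring (0.26), quantile normalization (0.16) or cyclic loess (0.10).

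The calls between the null lines often depended on the setting: those for Mir375, Mir326, Mir365-2 and Mir484 were made in 8, 10, 7 and 9 of 18 alternatives. Their adjusted p-values in the main comparison were 0.0495, 0.0338, 0.0473 and 0.0303. The 7 genes had hairpins of 45.5% to 67.2% G and C bases, and the 8 that were lower in null Eα than in null had hairpins of 39.5% to 47.6%. Over the 78 members with a hairpin entry, the correlation of hairpin G and C content with the difference was -0.03 for null against flox, 0.29 for null Eα against flox and 0.31 for null Eα against null. Signal also differed with base composition: the median was 2.77 for hairpins under 40% G and C, 3.74 at 40% to 50% and 5.43 at 50% or more. The 8 lower genes all lay in the Dlk1-Dio3 locus. The members' values share arrays and normalization, and the part of base composition, signal level or locus was not tested.

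The remaining rises in null were Mir338 (0.52), Mir331 (0.53), Mir378a (0.56), Mir425 (0.41), Mir491 (0.34), Mir452 (0.35) and Mir374b (0.36). All of these but Mir452 rose in null Eα too, by 0.31 to 0.65. Mir338 is known from neurons and lies within Aatk, which was 0.57 higher in null Eα. Mir425 lies within Dalrd3, which fell by 1.15 in null and 0.93 in null Eα. Mir452, called in null in 10 of 17 alternatives, was 0.05 from flox in null Eα, and its containing gene Gabre, a GABA receptor subunit, stood at -0.76 there.

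Against flox, rises were called in null Eα and not in null for Mir342, Mir361, Mir383, Mir421, Mir448, Mir463, Mir489 and Mir499, at 0.24 to 0.48. The difference between the lines was not called for any of them. Mir499, a muscle microRNA within the myosin gene Myh7b, was 0.32 ± 0.11 higher in null Eα with 1 flox array overlapping. Its call was made in 8 of 17 alternatives, and its value was 0.11 after quantile normalization and 0.10 after cyclic loess. The call for the X-linked Mir421 (0.24 ± 0.09) was made in 10 of 17. Its value was 0.10 after quantile normalization, 0.08 after cyclic loess and 0.16 with arrays centred on their medians.

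The last 20 members outside the 2 clusters were not called in any of the 3 comparisons. Apart from Mir296 and Mir297-1 they were Mir488, Mir350, Mir340, Mir497, Mir451a, Mir365-1, Mir455, Mir490, Mir330, Mir362, Mir450b, Mir450-1, Mir450-2, Mir471, Mir470, Mir465, Mir384 and Mir325. The X-linked testis cluster of Mir465, Mir470, Mir471 and Mir463 lay between 2.37 and 3.02 on all arrays, among the lowest signals of the members, and Mir451a, known from red blood cells, between 3.84 and 4.27.

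A microRNA inside a gene can be read from that gene's transcript or from its own. For 25 members the containing gene lay on the same strand and was measured, 23 genes in all. For 11 members in 8 measured containing genes the relative strand was not known from the reference used. Rtl1, Arrb1, Grid1, Elmo3 and Sfmbt2 were among these, and their pairs are not in the counts below. In null against flox, 6 of the 25 pairs were called in the same direction and 2 in opposite directions, 4 were called for the microRNA alone, 10 for the containing gene alone and 3 for neither. In null Eα against flox the counts were 9, 5, 4, 4 and 3, and in null Eα against null 0, 1, 0, 17 and 7. Of all genes, 55.2%, 63.7% and 31.7% were called in these comparisons, in that order, and the pair counts were not tested against those shares. Against flox, Mir341 and Mir370 with Rian and Mir423 with Nsrp1 were called in the same direction in both lines. Mir425 with Dalrd3 was called in opposite directions in both. From null to null Eα, Rian stood at -2.83 (called), while Mir341 (0.21) and Mir370 (0.08) were not called. The call for Mir423 in null Eα against flox was made in 12 of 18 alternatives.

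Of 24 measured microRNA processing genes 3 rose and 6 fell in null, where 26.5% of all genes rose and 28.7% fell. In null Eα 2 rose and 10 fell, beside 32.1% and 31.6% of all genes. Against null, 2 were higher and 7 lower in null Eα, beside 13.6% and 18.1%. Drosha and Dgcr8, which cut the primary transcript, were not called in any comparison. Dicer1 stood at -0.31 ± 0.07 in null and -0.59 ± 0.07 in null Eα. Tnrc6c, a partner of the Argonautes, fell by 1.35 ± 0.07 and 1.07 ± 0.07, and Khsrp, which helps process some precursors, by 0.69 ± 0.08 and 0.67 ± 0.08. The Dicer cofactor Tarbp2 stood at -0.81 ± 0.13 in null and -0.55 ± 0.13 in null Eα, both called. Lin28b, which blocks processing of let-7, rose by 1.12 in null and 0.77 in null Eα.

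Microarray features for 215 other genes named Mir gave a comparison. Of these, 84 (39.1%) rose and 21 fell in null, 118 (54.9%) rose and 18 fell in null Eα, and 29 were higher and 7 lower in null Eα than in null. The members outside the 2 clusters stood at 26.4% risen in null and 52.8% in null Eα, against the 26.5% and 32.1% of all genes. Among all genes below the median signal, where most members lay, the shares were 26.0% and 46.6%. In the 2 clusters together 24 and 3 genes rose in null. The difference between these groups of genes was not tested.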

How the data were processed

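The deposited table held log2 signals for 35556 features on 9 arrays, made by the authors with RMA, per the submitters' processing notes (version not given in the sources used here). Whether the arrays were normalized together, and the scan dates, are not given in the sources used here. Probe-level files were not used here, so signal over background was not measured, and the number of arrays limits the precision. Features with 1 symbol were kept, with the highest mean feature per gene.

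One linear model over all 9 arrays, with no covariate, gave every difference (lmFit and eBayes of limma 3.58.1, run under R 4.3.3). The script was checked on simulated data. Figures used matplotlib 3.10.9 in Python 3.11.15. Of the 85 members, 78 had a hairpin and 78 a mature form in RefSeq's table, and Mir320, Mir378a, Mir466, Mir297b, Mir383 and Mir328 had neither. Containing genes and gene order came from a reference table of GRCm38.p6. Features with several symbols were left out.

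The members and gene lists were chosen with earlier results of these data known. The text names the stem cell clusters, the 8 largest called rises and falls without overlap per comparison, the 10 members of highest mean, and Mir296, Mir298, Mir335, Mir483, Mir375, Mir449a, Mir499, Mir363 and Mir421. It names list genes set beside a member or with the 3 smallest p. Other names were chosen after their values were seen. The 18 alternatives were other normalizations, filters, priors and samples, a replicate block and leaving out each array. Replicate numbers are shared between groups, but nothing in the labels says that they pair samples, so they were not taken as pairs. In their deviations from the group mean, 3 of 9 same-numbered pairs correlated above 0.1 (-0.03 to 0.26). Of differently numbered pairs, 1 of 18 did (-0.20 to 0.14). A structure shared by replicate number is therefore possible and was not tested, and the replicate block is given only as an alternative.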

Additional observations from a re-analysis of the deposited data

How the results depend on the processing

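Over 114 results for named members and their alternatives, 1821 values kept their direction and their side of the threshold, 121 lost a call, 47 gained one, 23 uncalled values changed sign and 1 called value did: Mir423 in null Eα against flox, at 0.18 with each chromosome centred. The cause of these changes was not tested. The dim-gene filter left 40 members, of which 22 were higher and 1 lower in null, 28 higher and 1 lower in null Eα against flox, and 2 lower in null Eα than in null. It left 10 Dlk1-Dio3 genes, with 8 higher in null, 8 higher in null Eα and 2 lower in null Eα than in null. In null Eα against flox, 26 members were higher after quantile normalization and 24 after cyclic loess, with 11 and 10 in the Dlk1-Dio3 locus, and members lower ranged from 2 to 4 when 1 array was left out.

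In null Eα against null, 3 members were higher with each array centred on its median and 11 with the replicate block. Leaving out 1 array gave 1 to 9 higher and 6 to 14 lower. The 14 lower were reached without null replicate 1 and without null Eα replicate 3. In the Dlk1-Dio3 locus 1 gene was higher after quantile normalization and 1 after cyclic loess, and 0 to 1 with 1 array left out. Of the 5 Mir302 and Mir367 genes, those called higher in null numbered 1 with the trend and robust prior, 5 with only the groups compared, 5 with the replicate block and 0 to 5 with 1 array left out. Those called lower in null Eα than in null numbered 1 with the replicate block and 0 to 5 with 1 array left out. The counts for these 2 clusters were added after seeing the data. The median difference of all genes moved by more than 0.1 only in null Eα against flox with dim genes left out, to -0.05. Shares of all genes called under the alternatives are not given here.

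Low signal limits what these arrays can show, since 45 of 85 members were under the lower quartile of signal.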

Other observations

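A further 18 features carry a symbol of this number range together with other symbols and were left out of the counts, so their values are given without a test. The feature shared by Mirg and Mir410 at the end of the Dlk1-Dio3 locus read 3.14, 2.99 and 2.94 in flox, 4.44, 4.63 and 4.42 in null, and 3.29, 3.32 and 3.41 in null Eα. Its null arrays were 1.47 above flox and its null Eα arrays 0.32 above flox on average, with no overlap between the groups. The 9 features shared by the Mir467a copies, Mir467b and Mir467d of the Sfmbt2 cluster held 1 set of values. These were 3.57, 3.48 and 3.53 in flox, 3.46, 3.26 and 3.58 in null, and 5.84, 5.32 and 4.64 in null Eα, so that every null Eα array was above the other 6. The mean difference was -0.09 in null and 1.74 in null Eα.

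The feature shared by Mir351 and C430049B03Rik was 0.51 higher in null and 0.64 higher in null Eα than in flox, and that shared by Mir322 and C430049B03Rik was at -0.11 and 0.18. The feature shared by Mir433 and 6430411K18Rik was 0.71 higher in null and 0.94 higher in null Eα. The feature shared by Mir429 and Gm13648 lay between 3.08 and 3.23 on all 9 arrays.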
